A study of Mus musculus with 6 samples.

Results

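Mitochondrial protein import genes were taken as every row of the deposited table whose symbol starts with Timm, Tomm or Chchd, leaving out symbols that contain -ps. This gave 34 of 16095 genes. RNA was sequenced from 6 libraries of sorted mouse kidney epithelium. The 3 control libraries came from Trf1+/+ mice and the 3 Terf1_flox libraries from Trf1 flox/flox mice, in which both copies of Terf1, the gene of the telomere protein TRF1, can be removed by Cre. Both groups also carried the KFP reporter and the Cre transgene (KFP+/t Cre+/t), an inducible CreERT2 under the Ksp-cadherin promoter, which is active in kidney tubule epithelium and not in the whole organ. Male and female mice of both groups received tamoxifen 3 times a week for 8 weeks, from 6 to 8 weeks of age, and cells were sorted on EpCAM and the reporter. The labels give neither the sex per library nor whether a library pools mice, so n is the number of libraries and p-values measure only the spread between libraries, which may be technical.

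Most mitochondrial proteins are made in the cytosol and threaded into the organelle. The TOM complex of the outer membrane receives them, the small Tim chaperones carry hydrophobic ones across the intermembrane space, and the TIM23 and TIM22 complexes of the inner membrane pass them to the matrix or insert them, while Chchd4 traps small cysteine-rich proteins by forming disulfide bonds. Kidney tubule cells of the distal nephron are rich in mitochondria. Not all 34 genes named by the rule act in import. Chchd3 and Chchd6 belong to the MICOS complex that shapes cristae. The 3 genes Chchd1, Timmdc1 and Tomm34 are known for other roles, in the mitochondrial ribosome, in complex I assembly and as a cytosolic co-chaperone. Tomm6os is a transcript from the strand opposite Tomm6.

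The sequence upstream of the start is shown for 4 members, because 3 of them (Timm8b, Tomm5 and Chchd1) lay higher and 1 (Timm23) lower in Terf1_flox libraries, with no overlap between groups. Each runs from 250 bases before to 50 after the annotated start, read 5′ to 3′ on the gene's strand, from RefSeq on build GRCm38.p6, which is not the build of the deposited table. Capitals mark CCGGAAG on either strand, a core recognised by ETS factors such as GABP, a known regulator of mitochondrial genes. The windows are Timm8b at chr9:50603651-50603950 (plus strand), Tomm5 at chr4:45108064-45108363 (minus strand), Chchd1 at chr14:20702777-20703076 (plus strand) and Timm23 at chr14:32201842-32202141 (minus strand).
Timm8b: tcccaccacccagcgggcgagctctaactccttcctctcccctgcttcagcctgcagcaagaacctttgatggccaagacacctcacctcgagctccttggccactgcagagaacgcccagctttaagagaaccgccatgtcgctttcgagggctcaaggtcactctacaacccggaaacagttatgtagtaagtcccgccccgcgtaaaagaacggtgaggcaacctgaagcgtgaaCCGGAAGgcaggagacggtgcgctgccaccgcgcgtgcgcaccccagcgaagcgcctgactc
Tomm5: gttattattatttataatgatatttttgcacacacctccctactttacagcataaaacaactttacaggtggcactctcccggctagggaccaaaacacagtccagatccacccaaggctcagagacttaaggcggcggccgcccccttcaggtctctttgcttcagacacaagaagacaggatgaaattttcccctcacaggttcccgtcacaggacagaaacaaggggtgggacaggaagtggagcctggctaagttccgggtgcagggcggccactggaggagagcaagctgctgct
Chchd1: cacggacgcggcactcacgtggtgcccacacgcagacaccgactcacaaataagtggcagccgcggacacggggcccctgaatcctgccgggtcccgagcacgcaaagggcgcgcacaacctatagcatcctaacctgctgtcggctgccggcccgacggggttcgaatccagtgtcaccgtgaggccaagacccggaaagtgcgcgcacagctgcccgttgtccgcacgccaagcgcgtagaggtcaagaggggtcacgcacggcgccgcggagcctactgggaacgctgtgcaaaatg
Timm23: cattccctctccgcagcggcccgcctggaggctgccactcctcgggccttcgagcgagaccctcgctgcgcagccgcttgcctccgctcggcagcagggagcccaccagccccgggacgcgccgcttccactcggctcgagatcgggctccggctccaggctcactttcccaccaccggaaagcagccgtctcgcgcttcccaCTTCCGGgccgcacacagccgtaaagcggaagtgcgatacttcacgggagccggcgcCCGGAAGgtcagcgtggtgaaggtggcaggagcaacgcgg

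The letters CCGGAAG stood once in the Timm8b window and 2 times in that of Timm23, and in neither of the others. Windows were matched for 29 of the 34 members; Chchd2, Chchd7, Timm21, Tomm40l and Tomm7 had none. CCGGAAG was found in 11 of those 29 members (37.9%), against 19.7% of the 10370 tested genes with a window and 8.86% of all 32851 windows of this length. Of the 11 members, 6 had a log2 fold change above 0 and 5 below, so the letters occurred with both signs. Of 7 other short motifs searched on both strands, TGCGCA, part of the NRF1 site, occurred in 6 of 29 members (20.7%) and in 15.5% of tested genes, and GGGCGG, the GC box, in 12 of 29 (41.4%) and in 65.9%. GCGCATG, also part of the NRF1 site, was found in 3.45% of members and 7.65% of tested genes, GCCATCT of YY1 in 6.9% and 8.37%, CCAAT in 34.5% and 42.9%, TATAAA in 10.3% and 9.27%, and GGAAG, which lies inside CCGGAAG, in 79.3% and 78.7%. A match describes letters and not a bound site.

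Libraries held 13582140 to 17680986 reads over the deposited genes, and 14845 to 15512 genes had reads. Terf1 was at 529.6, 486.1 and 663.9 normalized counts (reads divided by 1 size factor per library) in control and at 62.0, 24.6 and 25.3 in the Terf1_flox group, which is −3.99 ± 0.61 on the log2 scale (limma adjusted p = 0.0814; exact two-sided permutation p = 0.1, the smallest that 3 against 3 can give). Markers of the thick ascending limb summed to 234025 to 284099 in control and 194155 to 208690 in Terf1_flox libraries (4 of 7 with a log2 fold change above 0), and those of the proximal tubule to 2010 to 4069 and 4123 to 14588 (6 of 8 tested above 0). Epithelial markers fitting the sort summed to 11498 to 16129 in the controls and 8085 to 11588 in the Terf1_flox group (0 of 5 above 0). Intercalated cell markers overlapped between groups (9115 to 21463 and 6317 to 13600.2; 8 of 9 below 0). Of 8 lymphocyte markers 3 were listed, summing to 4.74 to 17.2 and 24.6 to 135.6, while Cd3e, Cd3d, Cd3g and Nkg7 were not listed. No endothelial or podocyte marker was listed (0 of 8 and 0 of 5), 1 of 8 fibroblast markers was, and macrophage markers summed to at most 149. The mitochondrially encoded share of reads was 10.3% to 13% in control and 16.2% to 20.6% in Terf1_flox libraries. The part of these differences in the import gene results was not tested.

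The study's design asks how gene expression differs once TRF1 is lost from renal epithelium. Among import genes, the small subunits and chaperones Tomm7, Tomm5 and Timm8b averaged about 2-fold more, with fold changes of 2.03, 1.96 and 2.09, and the channel gene Timm23 averaged 1.7-fold less. Of the 33 members that reached a mean of 10 normalized counts, 20 (60.6%) had a log2 fold change above 0 and 13 below. Over all 14822 genes tested 47.2% were above 0. The median was 0.09 for the members against −0.08 over all genes tested. No member passed in limma at an adjusted p below 0.05 (0 of 33; background 0%), nor in edgeR (0 of 33; background 0%). At an unadjusted p below 0.05 limma gave 8 members (24.2%; background 14.1%) and edgeR 7 (background 13.4%). The 5 higher among the 8 were Tomm7, Timm8b, Tomm5, Chchd1 and Timm10b (background 5.7% higher), and the 3 lower were Timm23, Timm22 and Tomm40l (background 8.43% lower). DESeq2 called 5 members, of which Tomm7, Timm8b, Tomm5 and Chchd1 rose (4 of 33; background 2.21%) and Timm23 fell (1 of 33; background 3%), where 5.21% of all genes were called. Groups did not overlap for 12 members (36.4%; background 21.1%), 7 of them higher (background 10.3%) and 5 lower (background 10.8%). Scaling all libraries to equal totals moved the median of the members to −0.09 and that of all genes to −0.24. In these bulk libraries, fewer cells of a type and less RNA per cell cannot be told apart.

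**Figure D1:**
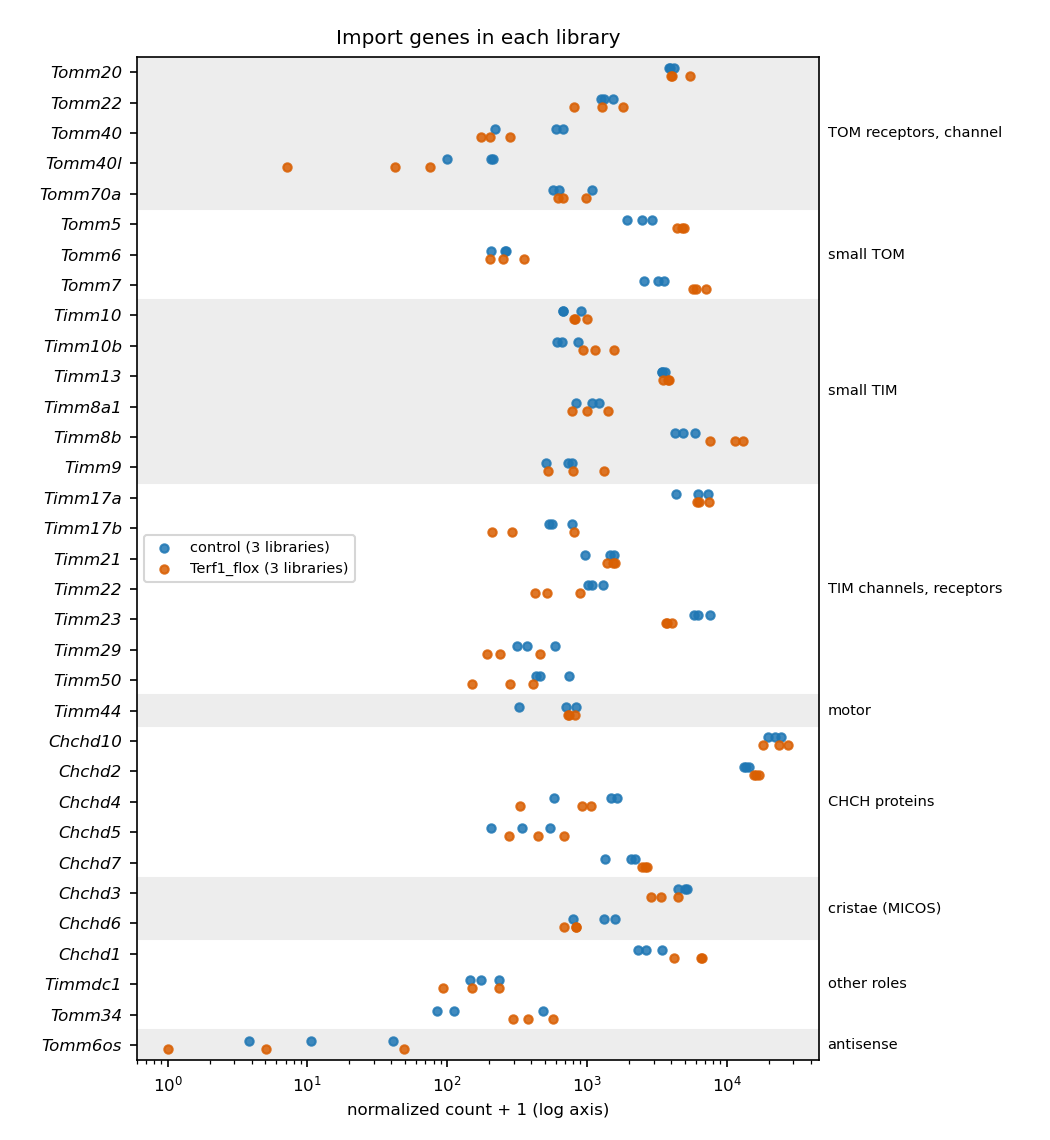
Normalized count plus 1 (log axis) of the 33 tested import genes in each of the 3 control and 3 Terf1_flox libraries, grouped by role; each point is a library. Tomm5, Tomm7, Timm8b and Chchd1 have all 3 Terf1_flox points to the right of the control points, and Timm23 and Timm22 have them to the left.

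Genes of the receptors and channel of the outer membrane gave 2 members above 0 and 3 below among 5 tested, with a median of −0.15 and none called by DESeq2. Tomm40 encodes the pore through which nearly all imported proteins pass. It stood at 220.8, 672.9 and 603.9 in control and 175.1, 281.2 and 200.4 in the Terf1_flox group, or −1.06 ± 0.54 on the log2 scale (limma adjusted p = 0.421). Control replicate 1 lay among the Terf1_flox libraries, so the groups overlapped; with transcript GC content and length corrected the log2 fold change was −0.45, and without control replicate 1 it was −1.57. Tomm40l, a paralog of the pore, was scarce, with 99.4, 205.9 and 213.1 in control and 41.3, 6.16 and 74.9 in the Terf1_flox group. All its Terf1_flox values lay below the control values (log2 fold change −2.53 ± 1.01, limma adjusted p = 0.311), and without Terf1_flox replicate 2, which held 6 reads, the log2 fold change was −1.54.

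The receptors showed no such gap. Tomm20, the receptor for cleavable presequences, stood at 4179, 3874 and 3945 in control and 5453, 4087 and 4015 in the Terf1_flox group, and Terf1_flox replicate 1 alone lay above all control libraries. Tomm22, the central receptor that links Tomm20 to the pore, ranged from 1262 to 1548 in control and from 808 to 1827 in Terf1_flox libraries, wide enough to enclose every control value. Tomm70a, the receptor for carrier proteins, ranged from 574 to 1095 and from 618 to 978 (log2 fold change 0.02 ± 0.38). Tomm20l, a relative of Tomm20, was below the filter, with 15 reads in Terf1_flox replicate 3 and 0 in the other libraries, where a count of 0 allows up to 3 reads.

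The small outer membrane subunits help the pore assemble, and Tomm7 also takes part in holding the kinase PINK1 at the membrane. Tomm7 stood at 3228, 3593 and 2558 in control and 7094, 5778 and 6058 in the Terf1_flox group. The lowest Terf1_flox value was well above the highest control value, and the log2 fold change came to 1.02 ± 0.21 (limma adjusted p = 0.115, DESeq2 adjusted p = 0.00168). Tomm5 stood at 2903, 1933 and 2476 in control and 4384, 4801 and 4944 in the Terf1_flox group, which is 0.97 ± 0.22 on the log2 scale (limma adjusted p = 0.137, DESeq2 adjusted p = 0.00533). Tomm6, the third of them, ranged from 205 to 261 and from 201 to 354, so its groups overlapped (log2 fold change 0.12 ± 0.46, −0.06 with equal totals). With GC content and length corrected, Tomm7 was at 0.78 and Tomm5 at 0.71.

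All 6 small Tim chaperones had log2 fold changes above 0, with a median of 0.27, though Timm13 and Timm8a1 were below 0 with equal totals (−0.09 and −0.17). Timm8b, a relative of the Timm8a proteins that escort proteins such as Timm23 itself, stood at 5967, 4308 and 4852 in control and 11399, 13171 and 7621 in the Terf1_flox group. Every Terf1_flox library exceeded every control library (log2 fold change 1.07 ± 0.24, limma adjusted p = 0.134, DESeq2 adjusted p = 0.00216), and the corrected value was 0.73. Timm10b, which docks the chaperones on the TIM22 complex, stood at 857.7, 658.6 and 614.1 in control and 1142, 1567 and 933.1 in the Terf1_flox group, again without overlap (0.75 ± 0.33, limma adjusted p = 0.346, DESeq2 adjusted p = 0.203). The other four overlapped between groups. Timm13, the partner of the Timm8 proteins, was among the steadiest members, from 3440.1 to 3636 in control and from 3498 to 3866 in Terf1_flox libraries, and Timm9 and Timm10, which together carry carrier proteins, had log2 fold changes of 0.31 ± 0.41 and 0.22 ± 0.31.

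Among genes of the inner membrane channels and their receptors, 5 of 7 tested were below 0, with a median of −0.75 (−0.42 with GC content and length corrected). Above 0 were 28.6% of these few genes, against 47.2% of all genes tested. The roles were set with earlier results of these data known, and the shares were not tested against each other. Timm23, the channel-forming subunit for presequence proteins, stood at 6216, 5854 and 7560 in control and 3726, 4078 and 3693 in the Terf1_flox group. The highest Terf1_flox value was well under the lowest control value, giving −0.76 ± 0.19 on the log2 scale (limma adjusted p = 0.149, DESeq2 adjusted p = 0.0198), and the corrected value was −0.81. Timm22, the core of the complex that inserts carrier proteins, stood at 1013, 1084 and 1305 in control and 427.5, 888.8 and 522.2 in the Terf1_flox group, without overlap (−0.95 ± 0.36, limma adjusted p = 0.289, DESeq2 adjusted p = 0.2, corrected −1.03). Timm50, the receptor that guards the TIM23 channel, stood at 746, 428.9 and 463.4 and at 149, 279.1 and 413.9. Its groups did not overlap, but Terf1_flox replicate 3 lay just under control replicate 2 (−1.03 ± 0.50, limma adjusted p = 0.396, corrected −0.43).

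The partner of Timm23 in the channel did not follow it. Timm17a stood at 6256, 4363 and 7309 in control and 6159, 7490 and 6366 in the Terf1_flox group, with overlapping groups (0.19 ± 0.23, and −0.20 with GC content and length corrected). Timm17b, its paralog, had a wide spread in Terf1_flox libraries, from 210 to 804 against 535 to 788 in control (−0.75 ± 0.53, corrected −0.26). Timm29, a stabiliser of the TIM22 complex, was at −0.57 ± 0.50, and Timm21, which links the TOM and TIM23 complexes, at 0.21 ± 0.28 (corrected −0.08). Timm44, which tethers the motor chaperone to the TIM23 channel, stood at 707.3, 839.7 and 327.6 and at 820.2, 733.8 and 746.9. The Terf1_flox values of Timm44 lay close together inside the control range (0.40 ± 0.42, corrected 0.77, and −0.0087 without control replicate 3).

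**Figure D2:**
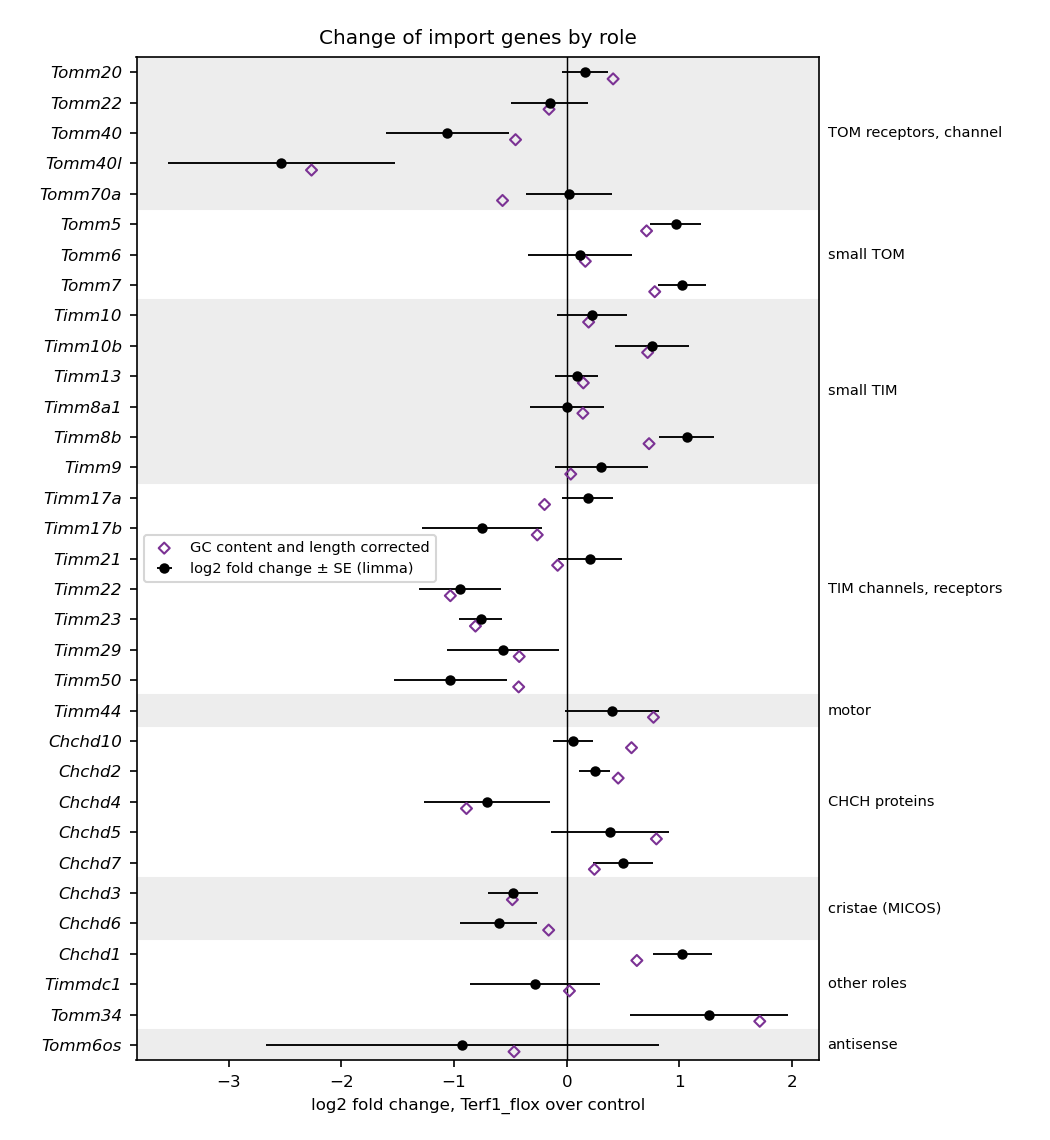
Log2 fold change of Terf1_flox over control ± SE from limma (filled points) and after correction for transcript GC content and length (open diamonds), for the 33 tested import genes grouped by role. Small TOM and TIM members lie at or right of 0, up to 1.07 for Timm8b, and 5 of the 7 inner membrane channel and receptor genes lie left of 0; the diamonds of Timm17a and Timm21 lie left of 0 and their points right of it.

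Because all genes of a library share 1 size factor, the ratio of 2 genes within a library does not depend on the scaling. These pairs were chosen after their values were seen. Timm8b was 1.73, 1.18 and 1.41 times Timm13 in control and 2.97, 3.77 and 1.97 times in Terf1_flox libraries. Timm23 stood at 0.994, 1.34 and 1.03 times Timm17a in control and at 0.605, 0.545 and 0.58 in the Terf1_flox group, the tightest of the 4 ratios among Terf1_flox libraries. Tomm7 was 2.09, 2.85 and 1.92 times Tomm22 in control and 8.78, 3.16 and 4.72 times in Terf1_flox libraries, where the low Tomm22 of replicate 1 gave the highest ratio. Tomm5 was 0.695, 0.499 and 0.628 times Tomm20 in control and 0.804, 1.17 and 1.23 times in Terf1_flox libraries. None of the 4 ratios overlapped between groups, and rescaling a library leaves them as they are. The 4 numerators did not overlap between groups on their own either, and no share was computed over other pairs.

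**Figure D3:**
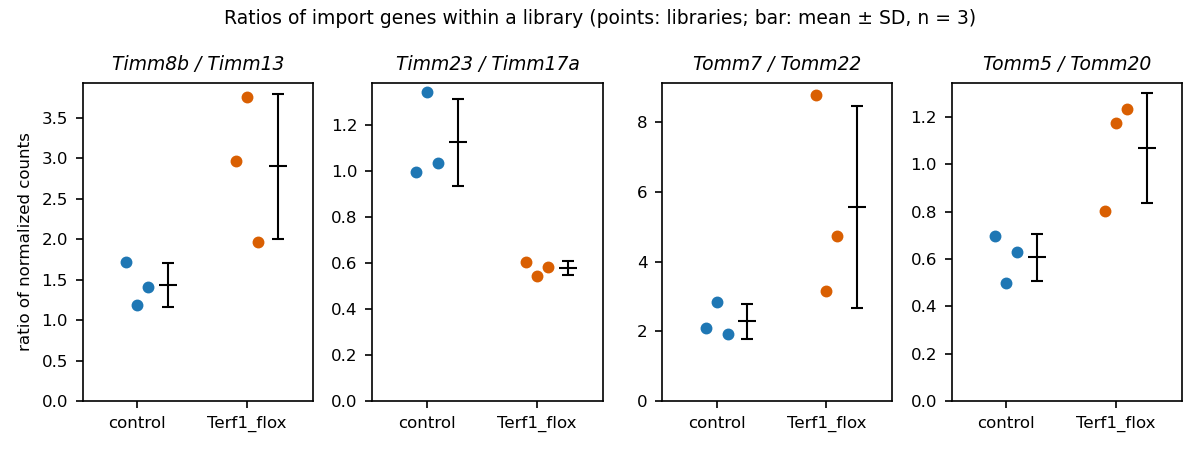
Ratio of normalized counts of 4 pairs of import genes within each library; points are libraries and the bar beside each group is its mean ± SD (n = 3). For Timm23 over Timm17a the control points lie between 0.994 and 1.34 and the Terf1_flox points between 0.545 and 0.605.

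The most abundant members were 2 CHCH genes. Per kilobase of median transcript length, Chchd10 averaged 18244 and Chchd2 15060 normalized counts over the 3 control libraries; both are small intermembrane space proteins tied to cristae and respiration. Chchd10 overlapped between groups (19853 to 24405 and 18313 to 27495, log2 fold change 0.05 ± 0.18). Its value depended on the processing, at −0.12 with equal totals and 0.57 with GC content and length corrected. Chchd2 varied little, from 13246 to 14425 in control and from 15601 to 17177 in Terf1_flox libraries, so the groups did not overlap. The log2 fold change of Chchd2 was only 0.25 ± 0.14 (limma adjusted p = 0.464). It was 0.07 with equal totals, 0.09 with quantile normalization and 0.46 with GC content and length corrected. Next on the same length scale came Timm8b at 9734, Timm17a at 9397 and Timm23 at 8421 in control, whose spreads overlapped, and the lowest of the 33 members tested were Tomm40l at 62.8 and Tomm6os at 5.98. In Terf1_flox libraries Timm8b averaged 20715 per kilobase, beside 19132 for Chchd10, and Timm23 averaged 4932.

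Chchd4, the oxidoreductase of the disulfide relay, varied widely within each group. It stood at 1485, 584.3 and 1641 in control and 329.6, 924.7 and 1064 in the Terf1_flox group, with overlap (−0.71 ± 0.56, limma adjusted p = 0.613; −0.18 without Terf1_flox replicate 1). Chchd7, a twin-cysteine protein of the same compartment, stood at 2070, 1339 and 2224 and at 2706, 2626 and 2465. Its Terf1_flox libraries were all higher, yet control replicates 1 and 3 lay close below them (0.50 ± 0.26, limma adjusted p = 0.436, corrected 0.25). Chchd5, a further protein of this kind, overlapped (0.39 ± 0.53).

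The MICOS members both lay below 0. Chchd3 stood at 4515, 5037 and 5236 in control and 3406, 4503 and 2874 in the Terf1_flox group. The highest Terf1_flox value was only just under the lowest control value (−0.48 ± 0.22, limma adjusted p = 0.386). Chchd6 overlapped between groups (797 to 1588 and 687 to 837, −0.60 ± 0.34, corrected −0.16). Among members with other roles, Chchd1 of the mitochondrial ribosome stood at 3469.5, 2313 and 2670 in control and 6523, 6615 and 4186 in the Terf1_flox group, with no overlap (1.02 ± 0.26, limma adjusted p = 0.157, DESeq2 adjusted p = 0.00736, corrected 0.62). Tomm34 had a log2 fold change of 1.26 ± 0.70, which was 0.91 with edgeR, 0.90 with DESeq2 and 2.03 without control replicate 3. Its control libraries ran from 83.9 to 483.9 and enclosed 2 of the 3 Terf1_flox values (limma adjusted p = 0.463). Timmdc1 overlapped (−0.28 ± 0.58). Tomm6os held 3 to 51 reads in control and 0 to 47 in Terf1_flox libraries, too few to compare at this depth.

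Reads of overlapping genes on opposite strands cannot be told apart unless counting used strand, and no source used here says whether it did. In GENCODE the exons of 15 members overlap those of another gene. For 4 members such a gene lies on the same strand, where strand could not separate the reads. These are Timm23 with Gm23946, Timm10b with Gm45799, Tomm6 with Gm21981 and Tomm6os with Frs3. Gm23946 and Gm21981 were not among the deposited genes. The exons of Timm8b overlap Nkapd1, those of Chchd1 overlap 6230400D17Rik and those of Timm10b overlap Arfip2, each on the other strand. The level of Nkapd1 was 183 ± 46.6 normalized counts (control) and 130 ± 22.4 (Terf1_flox), under the level of Timm8b in both. 6230400D17Rik averaged 99.7 ± 52.9 and 156 ± 66.1, and Arfip2 202 ± 111 and 171 ± 105 (SD, n = 3 each). Tomm70a overlaps Nit2, a gene of a similar level (869 ± 144 and 789 ± 186), and Timm9 overlaps Tomm20l, so Tomm70a and Tomm20l are uncertain. Tomm6 and Tomm6os overlap each other, so both are uncertain, as is Chchd2, which has the pseudogene copy Chchd2-ps.

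Transcripts of members whose median annotated length is under 1000 bases gave mostly values above 0. Of 13 such members 11 were above 0 (median 0.25), the exceptions being Timm22 and Timm23, beside 54.3% of the 3201 tested genes of that length (median 0.12). Of the 20 longer members 9 were above 0 (median −0.22), beside 44.9% of 11288 tested genes (median −0.14). This division was made after the values were seen. Across the 33 members the log2 fold change had a Pearson r of −0.40 with log2 length (Spearman rho −0.45) and of −0.28 with GC content (rho −0.28), and across 14489 tested genes r was −0.013 with length and −0.22 with GC content; genes share their 6 libraries and are not independent. After correction for both properties the 13 short members had a median of 0.19 and the 20 longer ones −0.16. Tomm7, with a median length of 1125 bases, and Tomm34 stood above 0 among the longer members.

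**Figure D4:**
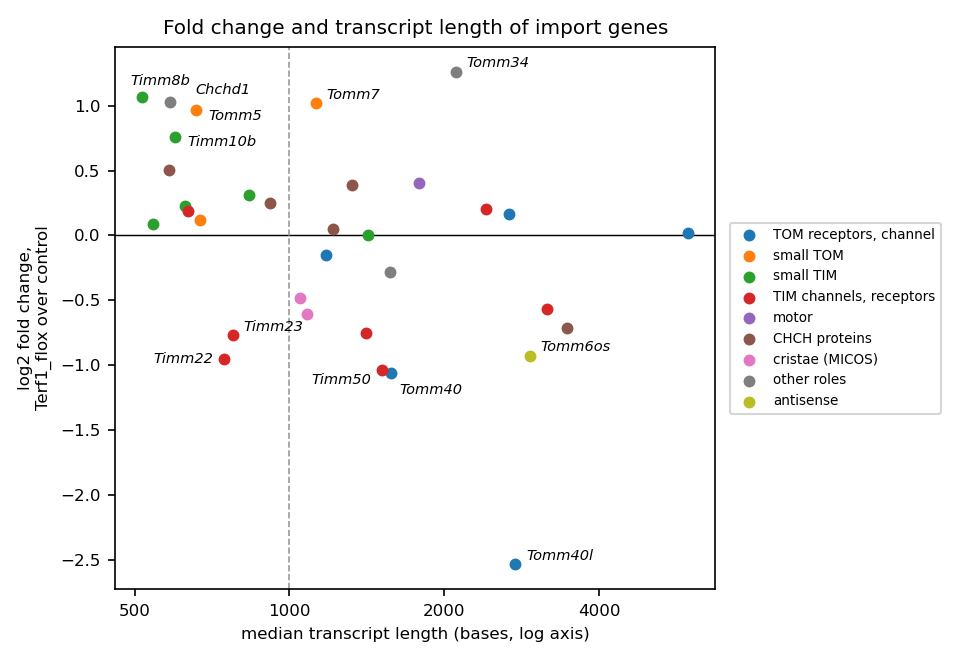
Log2 fold change of Terf1_flox over control against the median transcript length in bases (log axis) for the 33 tested import genes, coloured by role; the dashed line stands at 1000 bases. Left of the line 11 of 13 genes lie above 0, with Timm22 and Timm23 below it.

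Other genes of the import pathway, listed with earlier results of these data known, went both ways. Of 45 listed genes 44 were in the table, 17 with a log2 fold change above 0 and 27 below (median −0.09). None passed in limma or edgeR (0 of 44 in both); at an unadjusted p below 0.05 limma gave 8 higher (background 5.7%) and 12 lower (background 8.43%), and DESeq2 called 3 that rose (background 2.21%) and 10 that fell (background 3%). Samm50, the core of the machinery that inserts barrel proteins in the outer membrane, averaged 2142 ± 811 in control and 360 ± 218 in Terf1_flox libraries (−2.77 ± 0.58, limma adjusted p = 0.117, DESeq2 adjusted p = 5.56e-05; −2.10 without Terf1_flox replicate 2). Immt, the mitofilin core of MICOS, averaged 5194 ± 1188 and 1988 ± 421 (−1.38 ± 0.26, limma adjusted p = 0.0931), beside the lower values of its partners Chchd3 and Chchd6. In the same complex the small subunit Micos10 averaged 14985 ± 2569 and 26420 ± 3546 (0.82 ± 0.17, limma adjusted p = 0.121, DESeq2 adjusted p = 0.00726). Of the 5 listed MICOS genes outside the members, Immt and Micos10 among them, 3 lay above 0 and 2 below.

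Matrix chaperone partners also parted. Hspd1, the large ring of the mitochondrial chaperonin, averaged 3489 ± 1888 in control and 834 ± 327 in Terf1_flox libraries (−2.03 ± 0.45), while its small lid Hspe1 averaged 5599 ± 480 and 8543 ± 986 (0.61 ± 0.18). DESeq2 called Hspd1 (adjusted p = 0.000163) and not Hspe1 (adjusted p = 0.0575). Hsp90ab1, a cytosolic chaperone that hands precursors to Tomm70a, averaged 9233 ± 3160 and 3549 ± 159 (−1.31 ± 0.27, limma adjusted p = 0.117). Of the import motor, the membrane-bound J proteins Dnajc15 and Dnajc19 averaged 3795 ± 633 and 3447 ± 760 in the controls, against 6299.9 ± 159 and 5747 ± 563 in the Terf1_flox group (0.74 ± 0.20 and 0.76 ± 0.23). Neither passed in limma, while DESeq2 called both (adjusted p = 0.0266 and 0.0494). With GC content and length corrected, Dnajc15 was at 0.32 and Dnajc19 at 0.49. Hspa9, the motor chaperone itself, named after its values were seen, went the other way, from 4607 ± 1149 to 2633 ± 11.1 (−0.78 ± 0.23, limma adjusted p = 0.202, DESeq2 adjusted p = 0.0414).

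**Figure D5:**
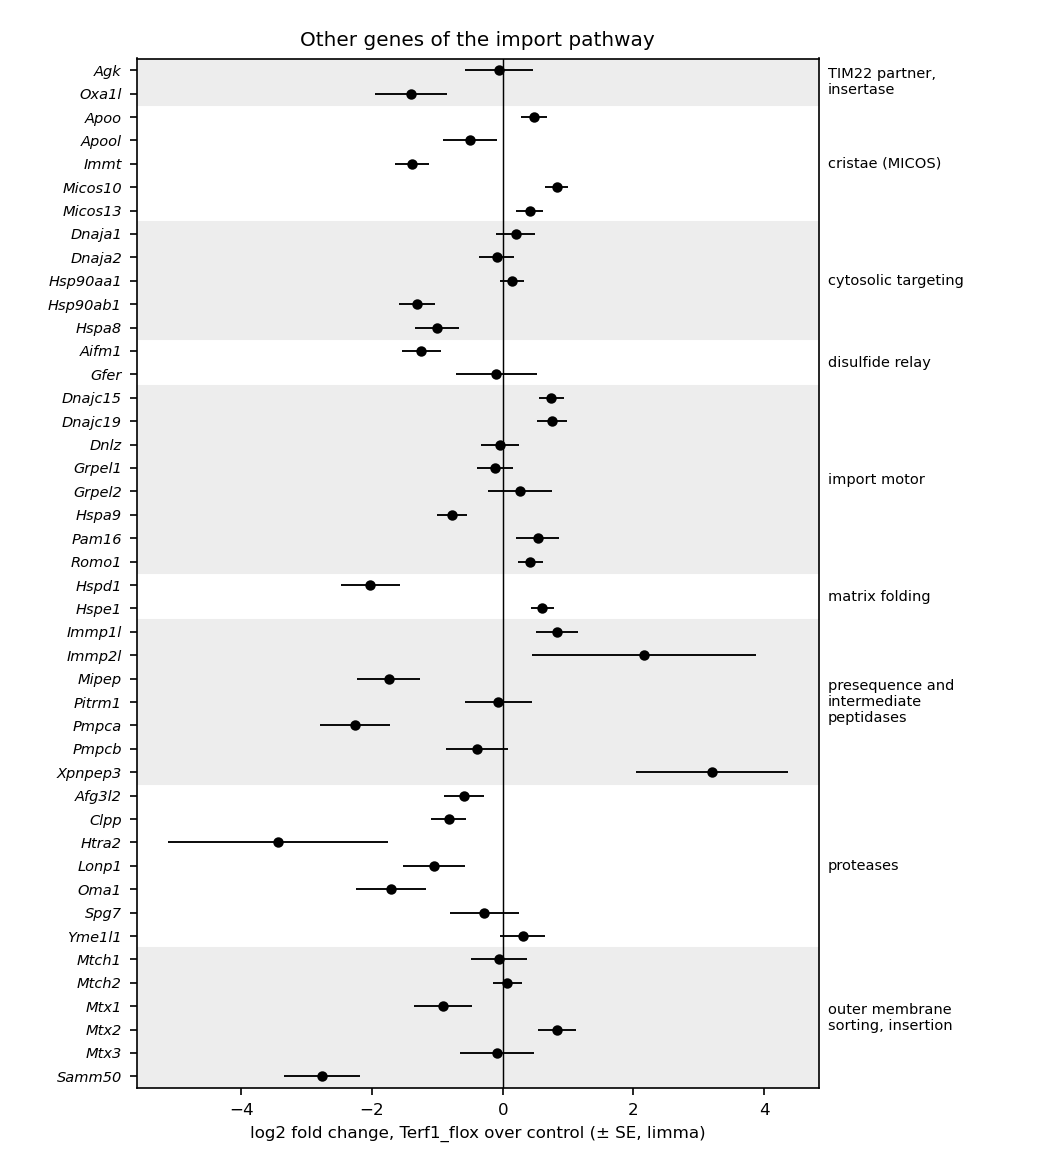
Log2 fold change of Terf1_flox over control ± SE (limma) for the 44 other import pathway genes found in the table, grouped by function. Among the genes named in the text, Samm50, Hspd1, Immt and Hsp90ab1 lie left of −1, and Micos10, Dnajc15, Dnajc19 and Hspe1 lie right of 0.5. Other points lie beyond these values too, and all 44 run from −3.44 to 3.20.

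Beside other mitochondrial families, the members' median of 0.09 was close to that of the 78 mitochondrial ribosomal protein genes (0.09, 43 above 0 and 35 below) and was under that of the 37 tested nuclear complex I subunit genes (0.50, 27 above 0 and 10 below). Groups did not overlap for 34.6% of the ribosomal and 83.8% of the complex I genes, beside 36.4% of import genes and 21.1% of all genes tested; these shares were not tested against each other. The members together took 0.65% to 0.681% of all normalized counts in control and 0.648% to 0.732% in Terf1_flox libraries, so their share overlapped between groups. Their summed normalized count did not overlap, at 84215 to 96241 in the controls and 99993 to 115550 in the Terf1_flox group. Neither did the sum without Chchd10 and Chchd2, at 48810 to 57411 and 59077 to 71759. The total over all genes did not overlap either, at 1.29e+07 to 1.41e+07 in control and 1.51e+07 to 1.58e+07 in Terf1_flox libraries. These sums were not divided by that total, and no share was computed without Chchd10 and Chchd2.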

How the data were processed

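The authors deposited 1 table of normalized counts, a signal of reads divided by a size factor per library, covering 16095 gene symbols. Per the submitters' processing notes, DESeq2 and build GRCm39 were used; no source used here names the aligner, counter, annotation or gene filter. In each library 100% of values were multiples of a fixed step (within 0.01 of a read), so whole reads were recovered, and median-of-ratios size factors matched the deposited ones to 2.3e-15. Intervals of depth cover counting error only, since no molecular identifiers were used. Libraries were prepared with a low-input polyadenylated RNA kit, per the labels' protocols. Values were not divided by gene length except where stated.

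Terf1_flox was compared with control by limma 3.58.1 (R 4.3.3; empirical Bayes, mean-variance trend) on log2(normalized count + 1), over 14822 genes with a mean of at least 10, two-sided, with Benjamini-Hochberg adjustment over all genes and a threshold of 0.05. A larger pseudocount shrinks the change of low genes on this scale, as for Tomm40l (−2.57 with 0.5 and −2.29 with 5). The change was still not always smaller than in the count models. Tomm40l was at −2.53 in limma, −2.05 in edgeR and −2.06 in DESeq2. Fold changes are Terf1_flox over control, ± is the standard error for them and the SD for means. edgeR 4.0.16 and DESeq2 1.42.0 on recovered reads were alternatives; edgeR called 0 genes and DESeq2 772. Other alternatives used pseudocounts of 0.5 or 5, kept low genes or dropped those under a mean of 50, and applied equal totals, upper quartiles, quantile normalization, array weights, a replicate block, leaving out each library, and a correction for GC content and length of transcripts (splines with 5 degrees of freedom, medians over protein-coding GENCODE M21 transcripts, found for 34 members and 97.6% of genes). Fits were tested on simulated data. Members, lists and roles were chosen with earlier results of these data known. Values per library are given for the 6 members in each direction with the smallest p and a mean of at least 50 and for fixed channel and receptor subunits, and up to 4 other import genes in each direction are named. Figures used matplotlib 3.10.9. Gene coordinates on GRCm39 were not used here.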

Additional observations from a re-analysis of the deposited data

How the results depend on the processing

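No import gene passed in limma or edgeR under any alternative run; DESeq2 called 5. Over all genes the count of calls was 0, but 132 once genes under a mean of 50 were dropped, 45 after scaling to equal totals, 8 with quantile normalization and 772 with DESeq2. Between 6 and 10 members had an unadjusted p below 0.05 in the 18 alternatives, and 12 did not overlap between groups with equal totals or upper quartiles. Both counts were added after the data were seen. Shares over all genes were not computed in the alternatives, so these counts have no background of their own. In the main fit 14.1% of all genes had such a p and 21.1% did not overlap. The 8 members with an unadjusted p below 0.05 kept their sign in all 18 alternatives. They were picked on these same values and their groups did not overlap. Leaving out a library therefore could not change a sign, and the kept signs are no separate support. The members' median of 0.09 was −0.088 with equal totals and 0.21 with upper quartiles, and ran from −0.078 (without Terf1_flox replicate 2) to 0.16 in leave-one-out fits. The median of all genes was −0.13 without genes under a mean of 50, −0.24 with equal totals, 0.037 with upper quartiles, 0.057 with quantile normalization, 0.026 with edgeR, 0.022 with DESeq2, −0.10 with GC content and length corrected, and −0.097 to −0.036 in leave-one-out fits. Terf1 was called when genes under a mean of 50 were dropped (−3.99), equal totals (−4.17) and DESeq2 (−3.89).

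Of the 33 members 13 changed sign in at least 1 alternative; the cause was not tested. With equal totals Chchd10 was at −0.12, Timm13 −0.088, Timm8a1 −0.17, Tomm20 −0.013, Tomm6 −0.055 and Tomm70a −0.16. With quantile normalization Chchd10 was at −0.21, and with array weights Timm8a1 was at −0.061. Corrected for GC content and length, Timm17a was at −0.20, Timm21 −0.080, Timmdc1 0.024 and Tomm70a −0.57. Tomm6os was at 0.020 with edgeR and 0.011 with DESeq2. Leave-one-out values ran from −0.078 to 0.21 for Chchd10, −0.025 to 0.35 for Timm17a, −0.0021 to 0.34 for Timm21, −0.0087 to 0.67 for Timm44, −0.23 to 0.21 for Timm8a1, −0.036 to 0.63 for Timm9, −0.61 to 0.053 for Timmdc1, −0.43 to 0.15 for Tomm22, −0.099 to 0.31 for Tomm6, −2.41 to 0.40 for Tomm6os and −0.18 to 0.31 for Tomm70a. The labels state no pairing by replicate number, and so few libraries cannot show its absence. Same-numbered libraries had correlations of their deviations of −0.049, 0.00013 and −0.0069. The replicate block called 0 genes and 0 members, with a members' median of 0.09. Genes with few reads, such as Tomm40l and Tomm6os, are limited by depth.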
